A study of Saccharomyces cerevisiae with 83 samples.

Results

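Cycloheximide, a drug that stops elongating ribosomes, was present or absent when budding yeast lysates were made for ribosome profiling, and the 27-32 nt footprints of all 80S ribosomes were compared between those conditions. Of the 83 libraries of the series, 16 were used, the 8 libraries from cells given cycloheximide (CHX) and the 8 libraries from cells given none (noCHX). They were chosen as the total ribosome libraries of the 4 N-terminal strains, reading the 27-32 nt class alone on both sides. Each CHX library was paired with the noCHX library that carries the same transformant number. RNA libraries of the same 8 transformants, and footprints of immunopurified ribosomes (IP80S) from 6 of them, served as other readouts.

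All strains were of the W303 background, and each gave 2 transformants per treatment. FLAG-Upf1 was an upf1::HIS3 strain with the plasmid pG1-FLAG-UPF1, FLAG-Upf2 an nmd2::HIS3 strain with YEplac112-FLAG-UPF2, and FLAG-Upf3 an upf3::HIS3 strain with YEplac195-TPI-FLAG-UPF3. WT-N was the wild type with the empty plasmid YEplac112. The FLAG-tagged proteins came from plasmids, and RNA of the plasmid-borne gene was far above the wild-type level: UPF1 (listed as NAM7) had between 28438 and 32142 CPM (the counts of a transcript scaled to one common library total) in FLAG-Upf1 RNA and between 299 and 373 CPM in WT-N RNA. In the CHX arm the drug was at 100 µg/ml, given to the culture immediately ahead of filtration and present during lysis.

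In ribosome profiling, RNase removes the mRNA that a ribosome does not cover, and the protected fragments are sequenced. An elongating ribosome protects a longer fragment when its A site is occupied and a shorter one when the A site is open. Cycloheximide binds the E site of the large subunit and blocks translocation, so that ribosomes on open frames are held where they stand while initiation can go on. In yeast it is known to shift the lengths of footprints and, when it is given to living cells, to alter where along an mRNA ribosomes are found. The 27-32 nt class is the long form, and 20-23 nt fragments were a separate class in the noCHX libraries.

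The 27-32 nt class held 153227 counts in the smallest CHX library, 350400 in the median one and 767020 in the largest, against 24712.5, 102725 and 351898 counts in the noCHX libraries. CHX was higher in 8 of 8 pairs, by 1.61 to 9.7 times (two-sided exact paired permutation test, p = 0.0078, the smallest that 8 pairs allow). A class total also depends on how deeply a library was sequenced, and the CHX libraries had no 20-23 nt counts to scale it by. The test therefore cannot tell an effect of the drug on footprints from a difference in depth. In noCHX the 27-32 nt class made up 15.6 to 40.5% of the 27-32 nt and 20-23 nt counts together. The 10 most abundant transcripts took 18.7 ± 0.71% of counts in CHX and 20.7 ± 1.56% in noCHX (SD, n = 8 each), higher in 1 of 8 pairs (p = 0.016, exact paired permutation test). Unspliced (pre-mRNA) entries took 0.0919 ± 0.0273% in CHX and 0.0645 ± 0.0227% in noCHX, higher in 8 of 8 pairs (p = 0.0078, exact paired permutation test). The unspliced share rests on few counts: in noCHX FLAG-Upf1 replicate 2 it was 0.0447% of 24712.5 counts. Adjusted by Benjamini-Hochberg over the 4 library measures tested, these p-values were 0.010 for the class total and the unspliced share and 0.016 for the 10 most abundant. The noCHX libraries FLAG-Upf1 replicate 2 and WT-N replicate 1 stood apart by depth and by their median correlation with the other libraries (0.644 and 0.631). Genes used by a cells took 0.0665 to 0.107% of counts in CHX and 0.085 to 0.141% in noCHX libraries of WT-N, FLAG-Upf3 and FLAG-Upf1. In FLAG-Upf2 the a-cell genes were at 0.00156% or less, and alpha-cell genes took 0.100 to 0.102% in CHX and 0.164% in noCHX. None of the 16 footprint libraries had a count for NMD2, UPF3 or UPF1, so footprints of these genes gave no check of the deletions. HIS3, the marker of the deletions, had 98.3 to 270 CPM in the footprint libraries of the FLAG strains. In those of WT-N it had 0 to 7.8 CPM, which goes with the strain labels.

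With cycloheximide, footprints rose on 40 mRNAs, among them 19 of the 137 ribosomal protein entries tested and the Hsp70 genes SSB1, SSB2, SSA1 and SSA2, and fell on 10, among them the cell wall gene CCW12 and 2 ribosomal protein genes. Of 2282 transcripts tested, 40 were higher and 10 lower in CHX at an adjusted p under 0.05, which is 2.19% of those tested (1.75% higher and 0.438% lower; edgeR's quasi-likelihood test with Benjamini-Hochberg adjustment over all transcripts). A further count, at an unadjusted p under 0.05, was 247 transcripts. A change was one of share within the 27-32 nt class, and the median log2 fold change over all transcripts tested was 0.14. The direction was the same in 8 of 8 pairs for 23 of the 40 and for 9 of the 10. Such agreement follows partly from the paired test that chose these transcripts and is no separate support. The CHX and noCHX libraries did not overlap for 10 of the 40 and 5 of the 10, against 0.789% of all transcripts tested. RPS31, RPP2A, RPL12B, RPL14A, SSB1, CCW12 and RPS13 kept their call under all 21 alternatives, and each of the other 43 lost it, changed sign or was not tested under at least 1. Without FLAG-Upf1 replicate 2 and WT-N replicate 1, whose noCHX libraries were the shallowest, 38 were called higher and 27 lower. Without FLAG-Upf2, 9 were called higher and 3 lower. With the noCHX libraries read over 20-32 nt in place of 27-32 nt, 21 of the 40 and 8 of the 10 were still called in the same direction. In that setting 13 of the 40 kept their sign without a call and 6 had the opposite sign, and the 2 transcripts called lower that lost their call were INA1 and AYR1.

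**Figure D1:**
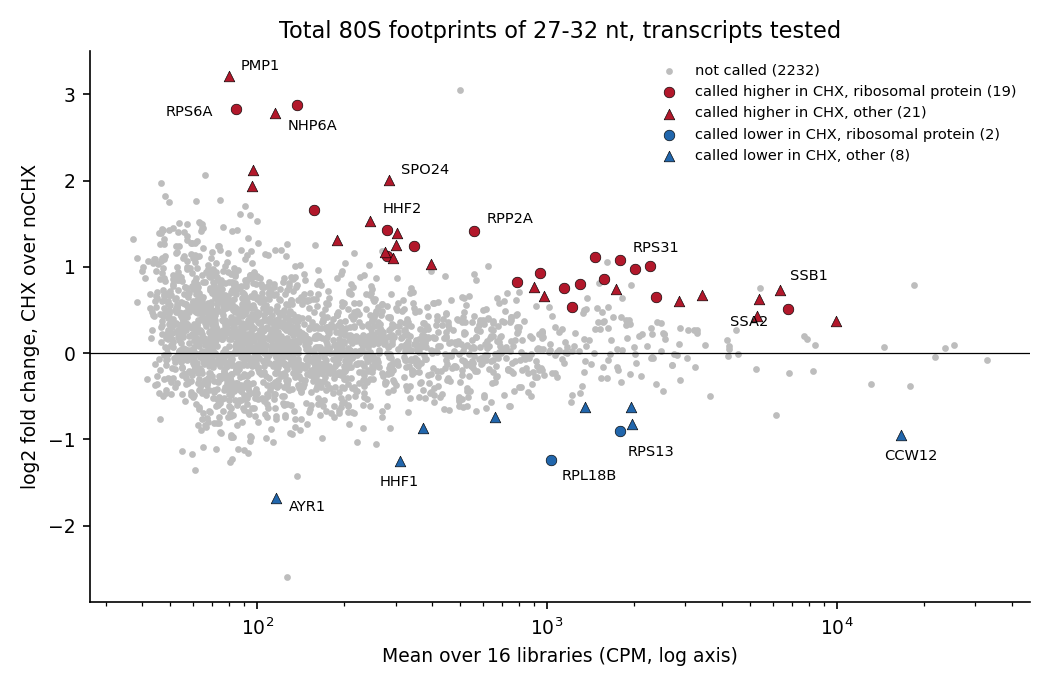
Fitted log2 fold change, CHX over noCHX, against the mean level over 16 libraries (CPM, log axis) for the 2282 transcripts tested. Red marks the 40 called higher and blue the 10 called lower, with circles for ribosomal proteins; the called transcripts below 100 CPM lie at high fold changes, and CCW12 is the most abundant called transcript.

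Of the 139 ribosomal protein entries listed (82 of the large subunit, 57 of the small), 137 were tested, 19 were called higher and 2 lower, or 15.3% called against 2.19% of all transcripts. Their median log2 fold change was 0.36, and 104 of the 137 were above 0. As a group they took 16.3% of the 27-32 nt counts in the lowest CHX library, 18.6% in the median and 19.2% in the highest, against 13.9, 16.5 and 19.7% in noCHX. That share was higher in CHX in 7 of 8 pairs, and the groups overlapped. With the noCHX libraries read over 20-32 nt, 17 were called higher and 16 lower of 139, a near-even split, and 7 of the 19 were still called higher. Without FLAG-Upf2, or without FLAG-Upf3, 6 were called higher and 2 lower.

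RPS31 (YLR167W, chromosome XII), which encodes ubiquitin fused to the small subunit protein eS31, had the smallest p-value of all. Its level was 1929 CPM in the lowest CHX library, 2198 in the median and 3872 in the highest, against 921, 1152 and 1708 CPM in noCHX. Every CHX library lay above every noCHX library, and the log2 fold change was 1.08 ± 0.13 (SE, 8 pairs; adjusted p = 1.45e-05, edgeR). RPP2A (YOL039W, chromosome XV), an acidic protein of the ribosomal stalk that recruits elongation factors, had 532, 828 and 992 CPM in CHX against 243, 291 and 409 CPM in noCHX. It too showed no overlap, with a log2 fold change of 1.42 ± 0.19 (adjusted p = 3.86e-05, edgeR). RPL12B, a large subunit protein at the base of that stalk, had 1253, 2058 and 2985 CPM in CHX against 728, 1152 and 1903 CPM in noCHX. Its groups overlapped although all 8 pairs rose, and the log2 fold change was 0.86 ± 0.14 (adjusted p = 0.0005, edgeR).

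RPL14A had 1458, 1989 and 2372 CPM in CHX against 285, 1011 and 1528 CPM in noCHX, a log2 fold change of 1.12 ± 0.19 (adjusted p = 0.000901, edgeR). RPS18B had 1368, 1646 and 1803 CPM in CHX against 679, 998 and 1248 CPM in noCHX, with no overlap and a log2 fold change of 0.80 ± 0.15 (adjusted p = 0.00259, edgeR). RPL14A encodes a large subunit protein and RPS18B a small subunit protein, and each has a near-identical copy elsewhere in the genome. ASC1, the yeast RACK1 homologue bound to the head of the small subunit, had 6689, 8018 and 9539 CPM in CHX against 4726, 5220 and 6867 CPM in noCHX. Its log2 fold change of 0.52 ± 0.10 was the smallest among the 19 called (adjusted p = 0.00331, edgeR), and 7 of 8 pairs rose. The others called higher were RPS29A, RPS27B, RPS17A, RPP1B, RPL32, RPL17A, RPL41B, RPS6A, RPL38, RPS4B, RPL41A, RPS6B and RPL11A. When the noCHX libraries were read over 20-32 nt, 6 of the 19 kept a value above 0 without a call, among them ASC1 at 0.08 (adjusted p = 0.721) and RPS18B at 0.42 (adjusted p = 0.0931, edgeR); the other 4 were RPS27B, RPL11A, RPL41B and RPS6A. A further 6 turned round: RPL38 was called lower at -0.74 (adjusted p = 0.00171, edgeR), and RPS29A, RPS17A, RPP1B, RPL41A and RPS6B had values below 0 that were not called.

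The largest fold changes among ribosomal proteins rested on few noCHX counts, and RPS6A and RPL41B passed the level filter chiefly through their CHX libraries. RPS6A, a copy of the small subunit protein eS6, had 381 counts over the CHX libraries and 27 over the noCHX libraries, of which 5 were at 0. Its levels were 63.9, 128 and 303 CPM in CHX against 0, 0 and 62.4 CPM in noCHX, and the fitted log2 fold change was 2.83 ± 0.71 (adjusted p = 0.0291, edgeR). RPS6B, the other copy, had a log2 fold change of 0.54 ± 0.14, and RPS6A and RPS6B summed gave 0.68 ± 0.14. RPL41A and RPL41B encode the smallest ribosomal protein, from reading frames of 78 nt. RPL41A had 754 counts in CHX and 89 in noCHX, RPL41B had 776 and 38, and the log2 fold change of the sum was 2.04 ± 0.32 (adjusted p = 0.00012, edgeR).

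Only RPS13 and RPL18B fell among the ribosomal proteins tested. RPS13 (YDR064W, chromosome IV), a small subunit protein encoded by a single gene, had 1056, 1203 and 1361 CPM in CHX against 1730, 2382 and 2791 CPM in noCHX. All 8 pairs fell with no overlap, and the log2 fold change was -0.90 ± 0.14 (adjusted p = 0.00024, edgeR). RPL18B had 130, 538 and 1153 CPM in CHX against 456, 1391 and 2174 CPM in noCHX, with a log2 fold change of -1.23 ± 0.20 (adjusted p = 0.000479, edgeR).

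Reads of near-identical copies can be assigned to either by an estimating counter, so each copy alone is uncertain. Of 64 such pairs with both members tested, 37 had both fitted values above 0, 4 had both below and 23 had opposite signs. Summed, 18 pairs were called higher and 1 lower (edgeR). That fit tested 2218 transcripts, and its calls over all of them are given with the alternatives below. Of the 64 pairs, 57 were of ribosomal proteins, so these counts largely restate the ribosomal protein result. HHF1 and HHF2, which encode the same histone H4 protein, moved against each other. HHF2 had 199, 329 and 694 CPM in CHX against 45.3, 112 and 235 CPM in noCHX (log2 fold change 1.53 ± 0.32, adjusted p = 0.00567). HHF1 had 88.6, 150 and 284 CPM in CHX against 215, 359 and 1083 CPM in noCHX (-1.25 ± 0.29, adjusted p = 0.0137). Their sum had a log2 fold change of 0.03 ± 0.22 (adjusted p = 0.978, edgeR). RPS29A was called, and the sum of RPS29A and RPS29B was not (0.82 ± 0.24, adjusted p = 0.0992).

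4 genes of cytosolic Hsp70 chaperones, which act on new polypeptides and on folding, were called higher in CHX. Of 6 ribosome-associated chaperones tested, SSB1 and SSB2, Hsp70s that bind nascent chains at the tunnel exit, were called higher and none lower. SSB1 (YDL229W, chromosome IV) had 5826, 7539 and 9744 CPM in CHX against 3679, 4435 and 8717 CPM in noCHX, and rose in 8 of 8 pairs with a log2 fold change of 0.73 ± 0.12 (adjusted p = 0.000518, edgeR). SSB2 had 3171, 3853 and 5956 CPM in CHX against 2177, 2398 and 3917 CPM in noCHX (0.67 ± 0.13, adjusted p = 0.00276). The partner ZUO1, the Hsp40 of the ribosome-associated complex, had a log2 fold change of 0.14 ± 0.20, and EGD2, a subunit of the nascent polypeptide-associated complex, of -0.17 ± 0.28, and neither passed the test.

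Of 20 heat shock chaperones tested, SSA1 and SSA2, the main cytosolic Hsp70s, were called higher and none lower. SSA2 (YLL024C, chromosome XII) had 5651, 6391 and 6937 CPM in CHX against 3582, 4374 and 5210 CPM in noCHX, with no overlap and a log2 fold change of 0.63 ± 0.11 (adjusted p = 0.000901, edgeR). SSA1 had 2392, 3282 and 4766 CPM in CHX against 1739, 2295 and 2744 CPM in noCHX (0.61 ± 0.14, adjusted p = 0.0117). Summed, SSA1 and SSA2 gave 0.63 ± 0.10 and SSB1 and SSB2 gave 0.73 ± 0.11, so the call did not depend on how reads were split between copies. The list as a whole took 2.05, 2.35 and 2.64% of counts in CHX against 1.85, 1.98 and 2.15% in noCHX, higher in 8 of 8 pairs. Without SSA1 and SSA2 the list took 1.19, 1.37 and 1.5% in CHX against 1.13, 1.33 and 1.49% in noCHX, higher in 5 of 8 pairs, so most of the difference lay in those 2 genes. HSP104, the disaggregase, was at 0.64 ± 0.21 (adjusted p = 0.145), and YDJ1, an Hsp40 partner of Ssa proteins, at -0.61 ± 0.18 (adjusted p = 0.0722).

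Of the translation factors, 1 was called. Of 13 elongation and termination factors tested, YEF3, the fungal elongation factor 3, was called, at 7951, 11407 and 12185 CPM in CHX against 7991, 8750 and 9890 CPM in noCHX (log2 fold change 0.37 ± 0.10, adjusted p = 0.0291, edgeR). None of 26 initiation factors and none of 59 ribosome biogenesis factors was called, with median log2 fold changes of 0.17 and 0.01. Ribosome biogenesis genes, which share much of their regulation with ribosomal protein genes, therefore had a median below that of all transcripts (0.14).

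**Figure D2:**
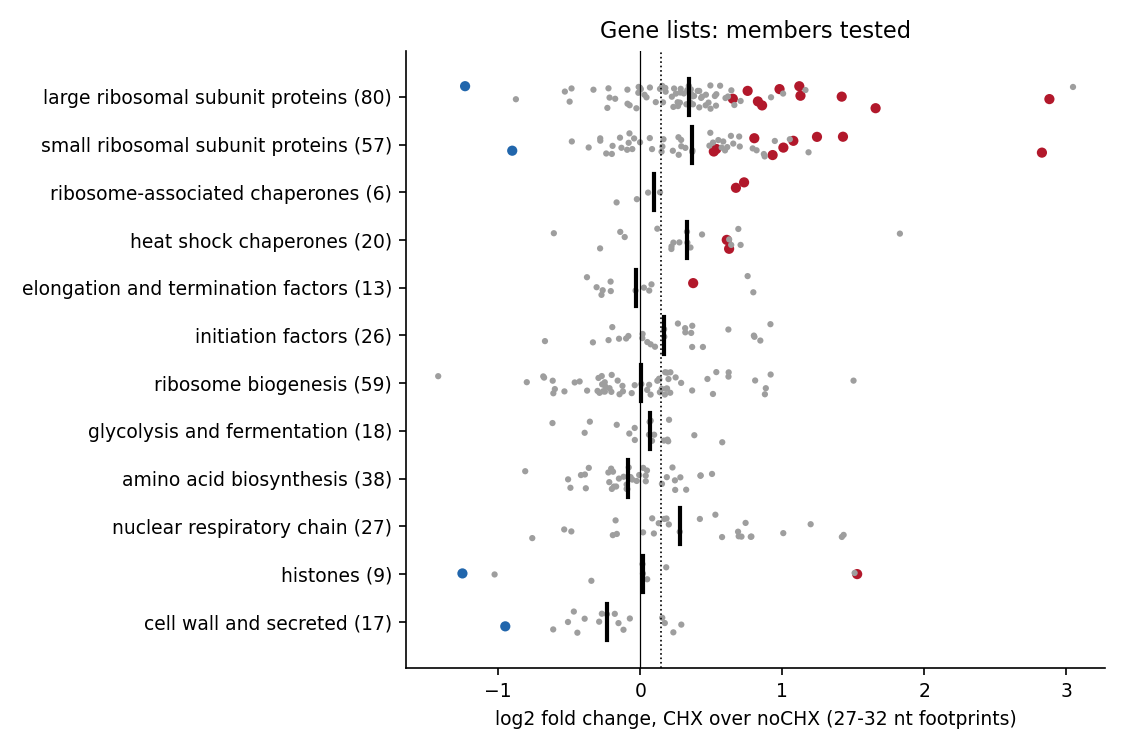
Fitted log2 fold change, CHX over noCHX, of each tested member of 12 gene lists (number tested in brackets). Thick bars are list medians, the dotted line is the median of all transcripts (0.14), and red and blue points are members called higher and lower; the ribosomal protein lists hold 19 of the 40 transcripts called higher.

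CCW12, which encodes an abundant mannoprotein of the cell wall (YLR110C, chromosome XII), had the smallest p-value of the transcripts that fell. Its level was 7905, 10642 and 14259 CPM in CHX against 14667, 19656 and 38190 CPM in noCHX. All 8 pairs fell with no overlap, and the log2 fold change was -0.95 ± 0.12 (adjusted p = 3.86e-05, edgeR). It was the only one called of 17 cell wall and secreted proteins tested, whose median was -0.23 with 4 above 0. The list took 2.49, 2.91 and 4.15% of counts in CHX against 3.6, 4.03 and 6.47% in noCHX, lower in CHX in 8 of 8 pairs. Most of that difference was CCW12: without it the list took 1.65, 1.84 and 2.82% in CHX against 1.90, 2.09 and 2.65% in noCHX, lower in 6 of 8 pairs and higher in both FLAG-Upf1 pairs. SCW10, a wall glucanase-like protein, was at -0.61 ± 0.20 (adjusted p = 0.154), and CWP1, a wall mannoprotein, at -0.51 ± 0.20 (adjusted p = 0.267). Without the 2 transformants of the shallowest noCHX libraries, 3 members were called lower.

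Of the other 6 transcripts called lower, leaving out ribosomal proteins and histones, SIM1 encodes a secreted protein of the SUN family and PSA1 the enzyme that makes GDP-mannose for wall glycoproteins. SIM1 had 1107, 1299 and 1676 CPM in CHX against 1219, 2496 and 4852 CPM in noCHX (log2 fold change -0.82 ± 0.15, adjusted p = 0.00159, edgeR). PSA1 had 1184, 1500 and 2124 CPM in CHX against 1908, 2322 and 2833 CPM in noCHX (-0.62 ± 0.13, adjusted p = 0.00632). SIM1 fell in 7 of 8 pairs and PSA1 in all, and both sets of libraries overlapped.

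ACS2, the acetyl-CoA synthetase used on glucose, had 915, 1016 and 1212 CPM in CHX against 1257, 1527 and 2994 CPM in noCHX, with no overlap (-0.63 ± 0.15, adjusted p = 0.0231, edgeR). URA7, the major CTP synthase, had 222, 257 and 293 CPM in CHX against 378, 457 and 747 CPM in noCHX, with no overlap (-0.87 ± 0.22, adjusted p = 0.0286). AYR1, a lipid reductase, had 29.2, 47.9 and 98.3 CPM in CHX against 99.1, 174 and 232 CPM in noCHX (-1.68 ± 0.41, adjusted p = 0.0216). AYR1 did not overlap either, on 170 counts in CHX and 181 in noCHX. INA1 had 259, 484 and 633 CPM in CHX against 503, 827 and 1173 CPM in noCHX (-0.74 ± 0.18, adjusted p = 0.0197).

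**Figure D3:**
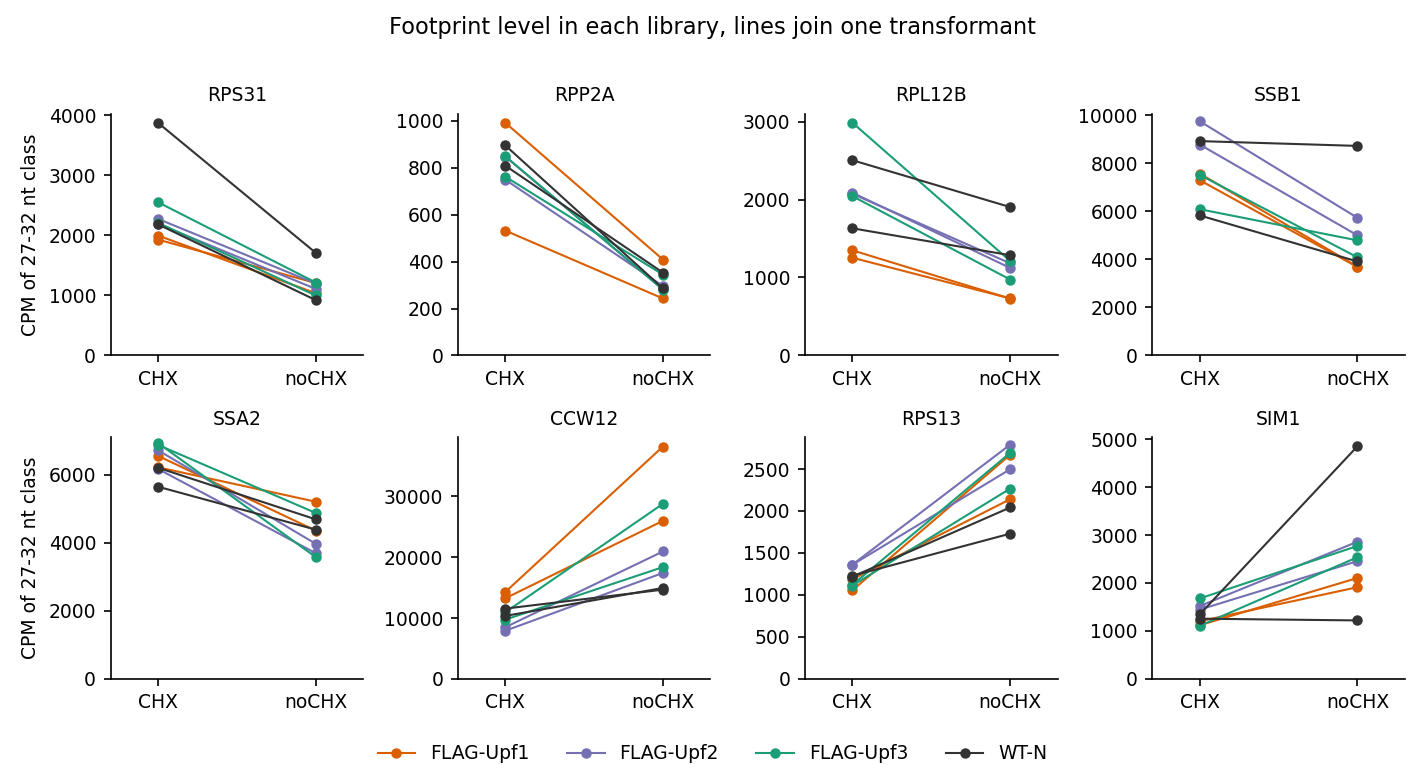
Level in each library (CPM of the 27-32 nt class, axes from 0) of 8 called transcripts, CHX on the left and noCHX on the right, each line joining the libraries of 1 transformant and coloured by strain. All 8 lines slope one way for RPS31, RPP2A, RPL12B, SSB1, SSA2, CCW12 and RPS13, and 7 of 8 for SIM1, where WT-N replicate 2 is nearly level.

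Among the remaining transcripts called higher, PMP1, a small regulatory subunit of the plasma membrane proton ATPase, had 62.6, 128 and 307 CPM in CHX against 0, 10.9 and 32.7 CPM in noCHX. It had the largest fitted log2 fold change of all calls, 3.22 ± 0.57 (adjusted p = 0.000977, edgeR), on 364 counts in CHX and 16 in noCHX. With the noCHX libraries read over 20-32 nt PMP1 was at 0.20 (adjusted p = 0.899, edgeR), with no call. PMP2, its paralogue, had 86.5, 141 and 288 CPM in CHX against 0, 39.7 and 65.4 CPM in noCHX (1.94 ± 0.47, adjusted p = 0.0197). Neither overlapped between groups, and PMP2 too was not called with noCHX over 20-32 nt (1.15, adjusted p = 0.0686, edgeR). PMP1, PMP2, NHP6A and RUB1 passed the level filter chiefly through their CHX libraries. A large fold change or a lack of overlap in such transcripts follows partly from that filter and is no separate support. NHP6A, a high-mobility group protein of chromatin, had 135, 192 and 309 CPM in CHX against 0, 6.6 and 88.7 CPM in noCHX (2.78 ± 0.56, adjusted p = 0.00464), with 4 noCHX libraries at 0. RUB1, a ubiquitin-like modifier, had 84.8, 149 and 186 CPM in CHX against 0, 27.5 and 268 CPM in noCHX (2.12 ± 0.52, adjusted p = 0.0224), and 1 noCHX library lay above all CHX libraries. SKP1, a core subunit of SCF ubiquitin ligases, had 169, 449 and 640 CPM in CHX against 0, 176 and 526.05 CPM in noCHX (1.40 ± 0.35, adjusted p = 0.0286).

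The median gene length, introns included, was 725 nt for the 40 called higher, 1040.5 nt for the 10 called lower and 1332 nt for all tested. Of the 2092 tested mRNAs of genes without a pre-mRNA entry, split by length into 5 groups of about equal size, the shortest group (78 to 801 nt, 421 mRNAs) held 16 called higher and 2 lower. The other 4 groups held 1 to 4 called higher each. Length did not order the change across all of them: the group medians were 0.15, 0.08, 0.10, 0.15 and 0.17 from shortest to longest, and Spearman's rho was 0.02 across the 2092 mRNAs. As shares of counts, the shortest group took 17.9, 18.5 and 19.0% in CHX against 17.9, 19.0 and 21.6% in noCHX, higher in 3 of 8 pairs. Group 2 (804 to 1197 nt) took 22.2, 22.8 and 23.4% in CHX against 23.2, 24.1 and 25.3% in noCHX, lower in 8 of 8 pairs. Group 4 (1632 to 2391 nt) took 17.9, 18.4 and 18.9% in CHX against 16.6, 17.2 and 18.2% in noCHX, and the longest 15.2, 15.8 and 16.1% against 14.5, 14.8 and 15.6%, both higher in 8 of 8 pairs. RNA of the same transformants had the same direction in group 4 and the longest group in 8 of 8 pairs. Group 3 differed: its share was higher in CHX in 6 of 8 pairs in footprints and in 0 of 8 in RNA. In RNA the shortest group was higher in 0 of 8 pairs and group 2 in 2 of 8. Calls also followed the level: of 5 groups by mean CPM, the lowest (37.3 to 69.5 CPM) held none at a median log2 fold change of 0.37, and the highest held 23 higher and 8 lower at 0.07.

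The other called transcripts, among them genes of metabolism, ubiquitin and the cytoskeleton, were named after their values were seen. SAH1, which clears S-adenosylhomocysteine, had 1849, 2138 and 2390 CPM in CHX against 809, 1343 and 1829 CPM in noCHX, with no overlap (0.75 ± 0.14, adjusted p = 0.00219, edgeR). MET17 and CYS4, enzymes of sulfur amino acid synthesis, were at 0.66 ± 0.18 and 0.77 ± 0.20 (adjusted p = 0.0413 and 0.0291). MET17 was the 1 called of 12 members tested of the sulfur and methionine list, whose median was 0.29. ACT1, actin, was at 0.43 ± 0.11 (adjusted p = 0.0247), and UBI4, polyubiquitin, at 1.04 ± 0.24 (adjusted p = 0.0141). SPE3, FUR1, ZEO1 and YNL190W were between 1.11 and 1.31. SAH1, CYS4, SPE3, FUR1 and ZEO1 were not called with noCHX over 20-32 nt. The remaining lists held no call, among them 38 genes of amino acid biosynthesis (median -0.09), 31 of the proteasome (0.18), 27 of the nuclear respiratory chain (0.28), 26 of mitochondrial ribosomal proteins (-0.07) and 18 of glycolysis (0.07). HIS3, TRP1 and URA3, genes that also serve as strain or plasmid markers, did not pass the test.

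IP80S libraries gave the same contrast in 6 of the transformants, those of the strains with a FLAG-tagged protein. Of 2555 transcripts tested there, 35 were higher (1.37%) and 40 lower (1.57%) in CHX, 2.94% in all (edgeR). Of the 40 called higher in total ribosomes, 30 were tested in IP80S, 28 had a value above 0 and 11 were called higher. Of the 10 called lower, 9 were tested, all 9 were below 0 and 3 were called lower. The median IP80S log2 fold change of all 1918 mRNAs tested in both readouts was 0.11. CCW12 was at -0.95 in IP80S (adjusted p = 5.78e-07), SIM1 at -1.24 (adjusted p = 3.19e-08) and AYR1 at -1.85 (adjusted p = 0.00203). SSB1 was at 1.25 (adjusted p = 2.91e-11), SSA2 at 1.23 (adjusted p = 1.55e-08), RPL12B at 1.34 (adjusted p = 0.00011), RPS18B at 1.25 (adjusted p = 1.52e-05) and RPL17A at 1.58 (adjusted p = 1.17e-05). RPP1B, an acidic stalk protein called higher in total ribosomes, went the other way, at -0.999 (adjusted p = 0.016), and RPP2A was at -0.25 (adjusted p = 0.888). Of the cell wall list, 6 of 17 were called lower in IP80S at a median of -0.52, CCW12, CWP1, SCW10, SCW4, CRH1 and TOS1. Across 1920 transcripts the fold changes of the readouts had a Pearson r of 0.40 and a Spearman rho of 0.39; they share strains and transformant numbers, and the libraries differ.

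In RNA most transcripts were called. Of 6570 transcripts tested in RNA, 2523 were higher (38.4%) and 2335 lower (35.5%) in CHX, 73.9% in all (edgeR). Among the 2282 transcripts tested in footprints, 304 were higher (13.3%) and 1568 lower (68.7%) in RNA. Among ribosomal protein transcripts 133 of 137 fell in RNA, at a median log2 fold change of -0.56, and 1 rose. Of the 40 transcripts whose footprints were called higher, 37 were called lower and 2 higher in RNA, beside that background of 68.7% lower. Of the 10 called lower, 9 were lower and 1 higher in RNA. RPS31 RNA was at -0.58, SSB1 RNA at -0.57 and CCW12 RNA at -0.42. Across the 2282 transcripts the footprint and RNA fold changes had a Pearson r of 0.003. Both are shares within a library, and the amount of RNA or of ribosomes per cell was not measured.

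**Figure D4:**
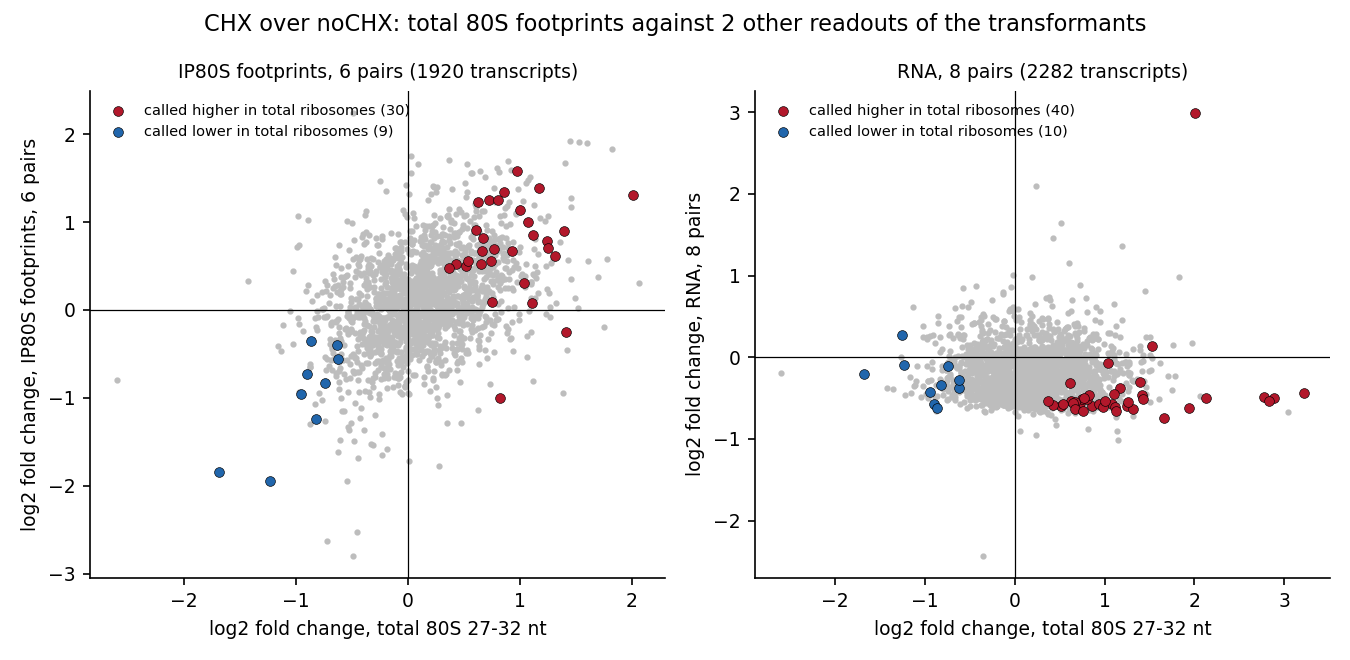
Fitted log2 fold change, CHX over noCHX, in total ribosomes (x axes) against IP80S footprints of 6 pairs (left, 1920 transcripts) and RNA of 8 pairs (right, 2282 transcripts). In the left panel 28 of 30 red points lie above 0 and all 9 blue points below 0; in the right panel 37 of 40 red points were called lower in RNA, as were 68.7% of all transcripts shown.

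The change of footprints beyond RNA, known as translational efficiency (TE), was tested in a model over both kinds of library. It gave 224 higher (9.82%) and 163 lower (7.14%) of 2282, 17% in all (edgeR), and this count depended on the model: limma voom with weights for each kind of library gave 17 higher and 4 lower, all 21 of them among the edgeR calls. On simulated counts the edgeR model for TE made more false calls than its threshold allows, so its p-values may be too small. Of the 50 transcripts called in footprints, 15 were called in TE by both tools in the same direction, among them PMP1 (TE 3.18), NHP6A (2.44), RPL12B (1.22), SSB1 (1.06), RPL18B (-1.39) and AYR1 (-1.66). TE is computed from the same footprint counts, so these calls are no separate support for the footprint changes. PMP1 and NHP6A passed the level filter chiefly through their CHX libraries. GLN1, glutamine synthetase, had a TE change of -1.43 (adjusted p = 7.66e-07 with edgeR, 0.0499 with limma voom). Its footprints were at 538, 717 and 848 CPM in CHX against 688, 1040 and 1388 CPM in noCHX, and its RNA log2 fold change was 0.67. DIP5, a permease for glutamate and aspartate, had RNA at 2.10 and footprints at 0.24 ± 0.31, a TE change of -2.12 (adjusted p = 7.66e-07 with edgeR, 0.196 with limma voom). SPO24, a small protein linked to sporulation, rose in both: its RNA was at 2.99 and its footprints at 191, 390 and 835 CPM in CHX against 0, 107 and 243 CPM in noCHX (2.01 ± 0.31, adjusted p = 0.000262, edgeR). Its TE change was -1.34 (adjusted p = 0.0375 with edgeR, 0.716 with limma voom).

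Within strains, 2 pairs each, few transcripts passed edgeR's quasi-likelihood test. The DESeq2 counts within strains came from a fit without the transformant term. FLAG-Upf1 had 3 higher and 3 lower (0.263%), with 213 at an unadjusted p under 0.05 and 22 calls by DESeq2. FLAG-Upf2 had 1 higher and 1 lower (0.0876%), with 69 at an unadjusted p under 0.05 and 6 by DESeq2. For FLAG-Upf3 no transcript was higher and 1 was lower (0.0438%), with 78 and 11 on those counts. WT-N had 2 higher and 1 lower (0.131%), with 133 and 5. Without replicate 2, WT-N gave 129 higher and 38 lower, from the pair with a shallow noCHX library. CCW12 was called lower in each strain with a tagged protein, at -1.07 ± 0.18 for FLAG-Upf1, -1.23 ± 0.18 for FLAG-Upf2 and -1.17 ± 0.18 for FLAG-Upf3, and was at -0.32 ± 0.18 in WT-N (adjusted p = 0.813). The difference between strains in CCW12 did not pass the test of that difference (adjusted p = 0.926). RPS31 was at 0.94 ± 0.27 for FLAG-Upf1, 0.95 ± 0.25 for FLAG-Upf2, 1.08 ± 0.25 for FLAG-Upf3 and 1.33 ± 0.25 for WT-N, and passed the test in WT-N (adjusted p = 0.0401).

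The test of a difference between strains called 3 of 2282 transcripts (0.131%), with 48 at an unadjusted p under 0.05. MTC7, a gene of uncertain role, was at -1.80 ± 0.21 for FLAG-Upf1, -0.82 ± 0.21 for FLAG-Upf2, -0.72 ± 0.21 for FLAG-Upf3 and 0.64 ± 0.22 for WT-N (adjusted p = 0.00439, edgeR). It had between 2926 and 6315 CPM in the FLAG strains in CHX and 4450 to 24361 CPM in noCHX, and in WT-N 864 and 1887 CPM in CHX against 527 and 1409 CPM in noCHX. TEF2, a gene for elongation factor 1A, was at -1.05 ± 0.18, -0.70 ± 0.18, -0.23 ± 0.18 and 0.51 ± 0.18 in the same order (adjusted p = 0.0343). TEF1 encodes the same protein, so reads of TEF1 and TEF2 can be split between them. In every pair TEF1 moved opposite to TEF2. In FLAG-Upf1 replicate 1, TEF1 had 20894 CPM in CHX and 7149 in noCHX, against 14890 and 28426 CPM for TEF2. In WT-N replicate 2, TEF1 had 13619 CPM in CHX and 32908 in noCHX, against 22504 and 11539 CPM for TEF2. Their sum was not tested, so the TEF2 call cannot be read as a strain difference in elongation factor 1A footprints. HHT2, histone H3, was at 1.04 ± 0.46, -0.74 ± 0.38, -1.03 ± 0.39 and 2.29 ± 0.45 (adjusted p = 0.0343), and shares reads with HHT1. None of these calls remained when the transformant term was left out, when a minimum count of 30 was required, or when noCHX was read over 20-32 nt.

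**Figure D5:**
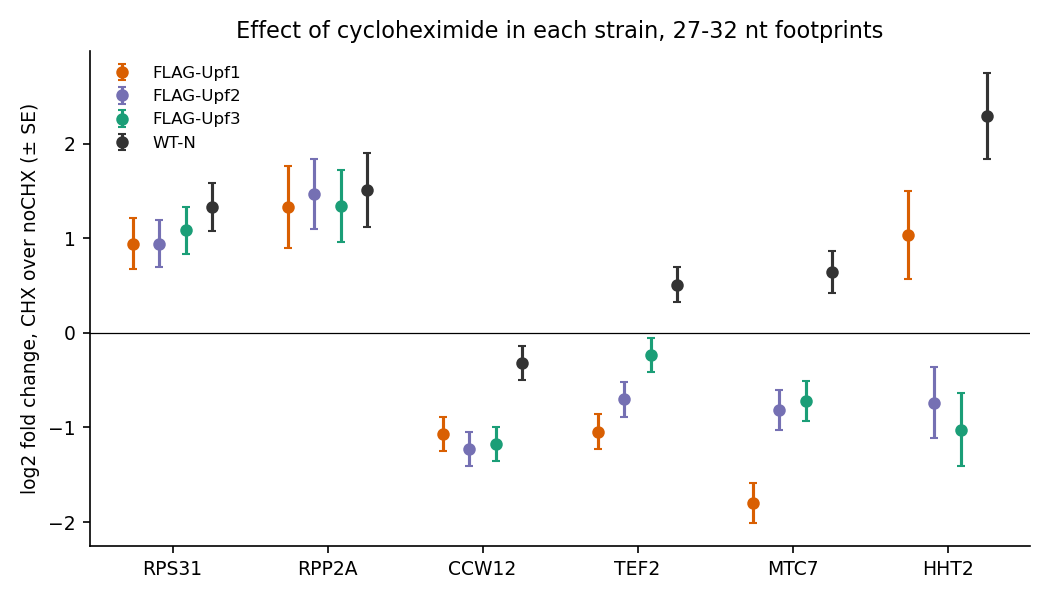
Fitted log2 fold change, CHX over noCHX, with its SE, in each of the 4 strains (2 pairs each), for 6 transcripts. RPS31 and RPP2A lie between 0.94 and 1.51 in all strains, CCW12 lies near -1 in the FLAG strains, TEF2 and MTC7 have WT-N above 0 and the FLAG strains below 0, and HHT2 has WT-N and FLAG-Upf1 above 0 and the other strains below 0.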

How the data were processed

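The authors deposited expected counts (transcript counts estimated by a program, not always whole numbers) for each footprint length class and for RNA. The submitters' processing notes name RSEM, Bowtie, cutadapt, R64 and sacCer3, without versions or roles. FPKM tables of the same estimates were not used. Per the labels' protocols, all 4 strains were depleted of rRNA with Ribo-Zero Gold. Here the counts were rounded and tested with edgeR 4.0.16 (R 4.3.3; quasi-likelihood F test, TMM factors, filterByExpr with a minimum count of 10), with a term for each transformant. An adjusted p under 0.05 is a call, and p-values are two-sided. The SE is the absolute log2 fold change over the square root of F. CPM are expected counts scaled to the class total of a library. In the text a row of 3 levels is the lowest, median and highest of 8 libraries. Symbols matched 5966 of 6656 loci in a table of assembly R64, and no columns were left unmapped (0).

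Members, gene lists and tests were chosen with earlier results of these data known. Named transcripts are the 12 called with the largest changes in each direction among those of at least 20 CPM with one sign in at least 7 pairs, up to 6 by p-value for TE and strain differences, up to 4 by p-value from each list, and the marker genes; others are said to be outside this rule. Per the labels' protocols cell powder of a sample was pooled, and nothing states whether transformants were grown on separate days, so p-values measure the spread between these libraries, which may be partly technical. The tests were checked on simulated counts, where the edgeR model for footprints beyond RNA made more false calls than its threshold allows. List shares without their called members were computed after seeing the data. Alternatives covered the transformant term, scaling, filters, DESeq2 1.42.0, limma 3.58.1 (voom), the 20-32 nt class, thinning, summed entries and each transformant or strain left out.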

Additional observations from a re-analysis of the deposited data

Results flagged for a closer look

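The effect of cycloheximide differed between strains by the test of that difference for 3 transcripts: MTC7 (adjusted p = 0.00439), TEF2 (adjusted p = 0.0343) and HHT2 (adjusted p = 0.0343, edgeR).

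Of 108 groups of 8 libraries checked by Dixon's criterion (the gap to the nearest library over the whole range, against its 95% critical value), 15 held 1 library apart, and chance gives about 1 in 20. Among the CHX libraries, WT-N replicate 1 was apart for RPS31 (3872 CPM), HHF2 (694 CPM), PSA1 (2124 CPM) and YEF3 (7951 CPM). FLAG-Upf1 replicate 1 was apart for RPP1B (727 CPM) and FLAG-Upf1 replicate 2 for CYS4 (1402 CPM). Among the noCHX libraries, WT-N replicate 1 was apart for RPS31 (1708 CPM), RUB1 (268 CPM), RPL41B (196 CPM) and SIM1 (4852 CPM). WT-N replicate 2 was apart for RPL38 (472 CPM), RPS29A (396 CPM) and SSB1 (8717 CPM), and FLAG-Upf1 replicate 2 for ACS2 (2994 CPM) and MET17 (1497 CPM). WT-N replicate 1 and FLAG-Upf1 replicate 2 are the transformants with the shallowest noCHX libraries, and the part of depth in these values was not tested.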

How the results depend on the processing

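Of the 50 transcripts called in total ribosomes, the fold changes under the 21 alternatives gave 1022 values, of which 734 stayed called in the same direction, 282 were no longer called and 6 changed sign. The 6 changes of sign all came with the noCHX libraries read over 20-32 nt: RPS29A (-0.0598), RPS17A (-0.0883), RPP1B (-0.10), RPL38 (-0.74), RPL41A (-0.88) and RPS6B (-0.0191). In that setting the median of all transcripts was 0.02, against 0.14. Among transcripts named without a call, MTC7 was at 0.47 in that setting, DIP5 at -0.0198 without FLAG-Upf2, and HHT2 at -0.0591 without FLAG-Upf1, -0.44 without WT-N, -0.26 without the shallowest 2 transformants (chosen after seeing the data) and between -0.12 and 0.48 with 1 transformant left out, below 0 without either WT-N one. The causes were not tested.

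Total calls were 50, and 100 with DESeq2, 108 with noCHX over 20-32 nt, 26 after thinning to the smallest library (403 transcripts tested), 26 without FLAG-Upf1, 12 without FLAG-Upf2 and 17 without FLAG-Upf3. Leaving out 1 transformant gave 27 to 65, with 27 and 28 without FLAG-Upf3 replicate 2, FLAG-Upf2 replicate 2 or FLAG-Upf1 replicate 1 and 31 without FLAG-Upf2 replicate 1. Of the calls 80% were higher, against 70% with RLE factors (35 higher, 15 lower), 68% with DESeq2, 51.9% over 20-32 nt and 53.8% after thinning. Ribosomal protein calls were 21, and 33 with no filter, 33 over 20-32 nt, 11 after thinning, 8 without FLAG-Upf2 and 8 without FLAG-Upf3; leaving out 1 transformant gave 13 to 25. Cell wall calls were 1, and 3 with DESeq2, over 20-32 nt, without WT-N and without the shallowest 2 transformants; leaving out 1 transformant gave 1 to 3, the 3 without WT-N replicate 1. With paralogue pairs summed (chosen after seeing the data) 39 were higher and 9 lower.

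Within strains, no filter gave 25 (FLAG-Upf1), 5 (FLAG-Upf3) and 8 (WT-N). DESeq2, here without the transformant term, gave 22, 6, 11 and 5 for FLAG-Upf1, Upf2, Upf3 and WT-N. A strain's 2 pairs fitted alone gave 118 (FLAG-Upf2), 14 (FLAG-Upf3) and 1 (WT-N). Leaving out a transformant gave 3 to 6 in FLAG-Upf1, 0 in FLAG-Upf2 and FLAG-Upf3 and 4 to 167 in WT-N, the lone pair being assumed to vary like the others. Strain differences numbered 3, and 9 with no filter, 0 with a minimum count of 30 and 0 over 20-32 nt. IP80S calls were 75, 116 over 20-32 nt and 36 to 80 with 1 transformant left out, the lowest without FLAG-Upf2 replicate 2 and 46 without its replicate 1. TE calls were 387, 686 with no filter, 21 with limma voom (added after seeing the data) and 278 to 429 with 1 transformant left out. RNA calls stayed between 4605 and 4921.

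The numbers did not visibly pair the libraries: deviations of same-numbered CHX and noCHX libraries correlated at -0.03 (FLAG-Upf1), -0.03 (FLAG-Upf2), 0.06 (FLAG-Upf3) and 0.04 (WT-N) across 2282 transcripts. Without the replicate block 41 transcripts were higher and 13 lower, 54 in all with 44 shared with the paired fit, 2 were called in FLAG-Upf3, 0 in WT-N and 0 for strain differences. Depth limits transcripts of few noCHX counts, since the smallest library held 24712.5 counts of this class.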
